A study of Homo sapiens with 16 samples.

Results

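The clustered histone genes encode the proteins around which DNA is wound, and 50 of them could be followed across the 16 arrays of this study. They were chosen by name and by signal. A transcript cluster, the unit for which the array reports a value, was taken when its only gene symbol started with H2AC, H2BC, H3C, H4C or H1-, and when at least 2 of the 16 arrays reached a log2 signal of 6. Of 63 single-symbol clusters with such names, among them the antisense RNA H1-10-AS1, 50 passed this floor. The array held 33297 clusters in all, and 16175 passed the same floor. The 50 genes comprised 9 H1, 10 H2A, 14 H2B, 7 H3 and 10 H4 genes.

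Total RNA came from HCC70 and from MDA-MB-468, human lines grown from basal-like breast tumours, with 2 arrays in each of 8 groups. HCC70 cells carried an shRNA against EZH2 (shEZH2), a scrambled shRNA in a first pair of arrays (set a), an shRNA against EED (shEED), a scrambled shRNA in a second pair (set b), an EZH2 cDNA vector (EZH2 cDNA), or an empty vector. MDA-MB-468 cells carried shEZH2 or a scrambled shRNA. All cells had been infected with virus and selected with puromycin, so the controls share infection and selection with the treated cells. The labels do not give the shRNA sequences, do not say whether the 2 arrays of a group came from separate cultures, and name the cDNA vector and its empty control as different vectors. Set a was taken as the control of shEZH2 and set b as that of shEED, which the labels do not state. EZH2 is the methyltransferase of Polycomb repressive complex 2, which marks histone H3 at lysine 27, and EED is the subunit that binds the mark.

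Core histones H2A, H2B, H3 and H4 form the nucleosome, and linker histones H1 sit on the DNA between nucleosomes. Most of their genes lie close together on chromosomes 6 and 1 and are transcribed in S phase, when new DNA has to be packaged. Their messages typically lack introns and end in a stem loop instead of a poly(A) tail. NPAT, at histone locus bodies, drives their transcription, and SLBP holds the stem loop during processing and translation. Many genes encode the same protein: the H4 genes described here all encode a single H4 protein, and the H3 genes H3.1. Coding sequences are therefore nearly identical, and probes of a gene may also detect its relatives, so each value is uncertain as a measure of that gene alone. H4C14 and H4C15 held identical values on all 16 arrays, leaving 49 distinct patterns. H1-7, H1-8, H1-10 and the pseudogene H1-9P lie outside the clusters, and H2BC19P is a second pseudogene. Because the samples are bulk cultures, fewer cells in S phase and less histone RNA per cell cannot be told apart.

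The floor passed some genes narrowly. H2BC19P reached it on 2 arrays, H2BC10 on 3, H4C9 on 4, H1-9P on 5 and H2BC17 on 6. Just outside, H2BC26 reached it on 1 array, and H3C3 and H2AC17 on none. Mean signals over the 16 arrays ran highest for H1-4 among H1 genes (11.83), H2AC21 among H2A (11.64), H2BC14 among H2B (10.69), H3C11 among H3 (11.62) and H4C3 among H4 genes (10.32). Probes differ in how well they bind, so these signals do not rank the genes by abundance.

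The targeted genes followed their labels in the knockdowns. EZH2 fell by 1.47 ± 0.07 (log2 units, standard error) in HCC70 shEZH2 cells and by 1.67 ± 0.07 in MDA-MB-468 shEZH2 cells, and EED fell by 0.82 ± 0.11 in shEED cells. EZH2 signal was 0.29 ± 0.07 higher in EZH2 cDNA cells than with empty vector, which did not pass the test (limma adjusted p = 0.0961). EZH2 was also lower in shEED cells than in set b, by 0.24 ± 0.07 (limma adjusted p = 0.0456; change -0.24). Epithelial and basal markers were high on every array (EPCAM at least 10.47, KRT5 at least 12.53). Of the markers for other cells, PTPRC, CD3E, PECAM1, VWF, CDH5, COL1A2, DCN and PDGFRB stayed below the floor, and CD14 (9.58 to 10.89) and COL1A1 (6.29 to 7.56) were above it. CD14 fell in all 3 knockdowns (by 0.58 in HCC70 shEZH2, 1.18 in shEED and 0.41 in MDA-MB-468 shEZH2 cells), and COL1A1 passed the test in none of the 4 treatments. Of 5 epithelial and 4 basal markers tested, 1 of each kind fell in HCC70 shEZH2 cells (EPCAM and KRT14), 3 and 2 fell in shEED cells, and KRT14 rose with EZH2 cDNA. Among all clusters tested, 4.06% fell in HCC70 shEZH2 cells, 7.53% fell in shEED cells, and 0.909% rose with EZH2 cDNA. The part of these markers in the results below was not tested. Array medians ran between 5.37 and 5.53, and the arrays of a group correlated at 0.994 to 0.997 over clusters.

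Histone promoters carry short elements that differ by type, and the letters before the start sites are shown here for the genes on which the results turn. RefSeq (GRCh38.p14) windows of 250 bases before the start were found for 44 of the 50 genes. Counting both strands, TATAAA, the TATA box, stood in 28 of 44 windows (63.6%), against 11.1% of 27305 windows of all genes. CCAAT, the box bound by NF-Y, stood in 37 (84.1%), against 33.0%. GGTCCG, the core of the H4 element bound by HINFP, stood in 8 of 8 H4 windows and in 12 of 44 in all (27.3%), against 9.33%. ATTTGCAT, the octamer bound by OCT1, stood in 7 of 10 H2A and 11 of 13 H2B windows and in none of H1, H3 or H4, against 1.66%. Head-to-head H2A and H2B genes share much of their windows, so these counts are not independent. GGTCCG and CCAAT can overlap, as they do in the H2BC21 sequence below. The genes printed and the motifs were picked after the values had been seen, and a match describes letters only.

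**Figure D1:**
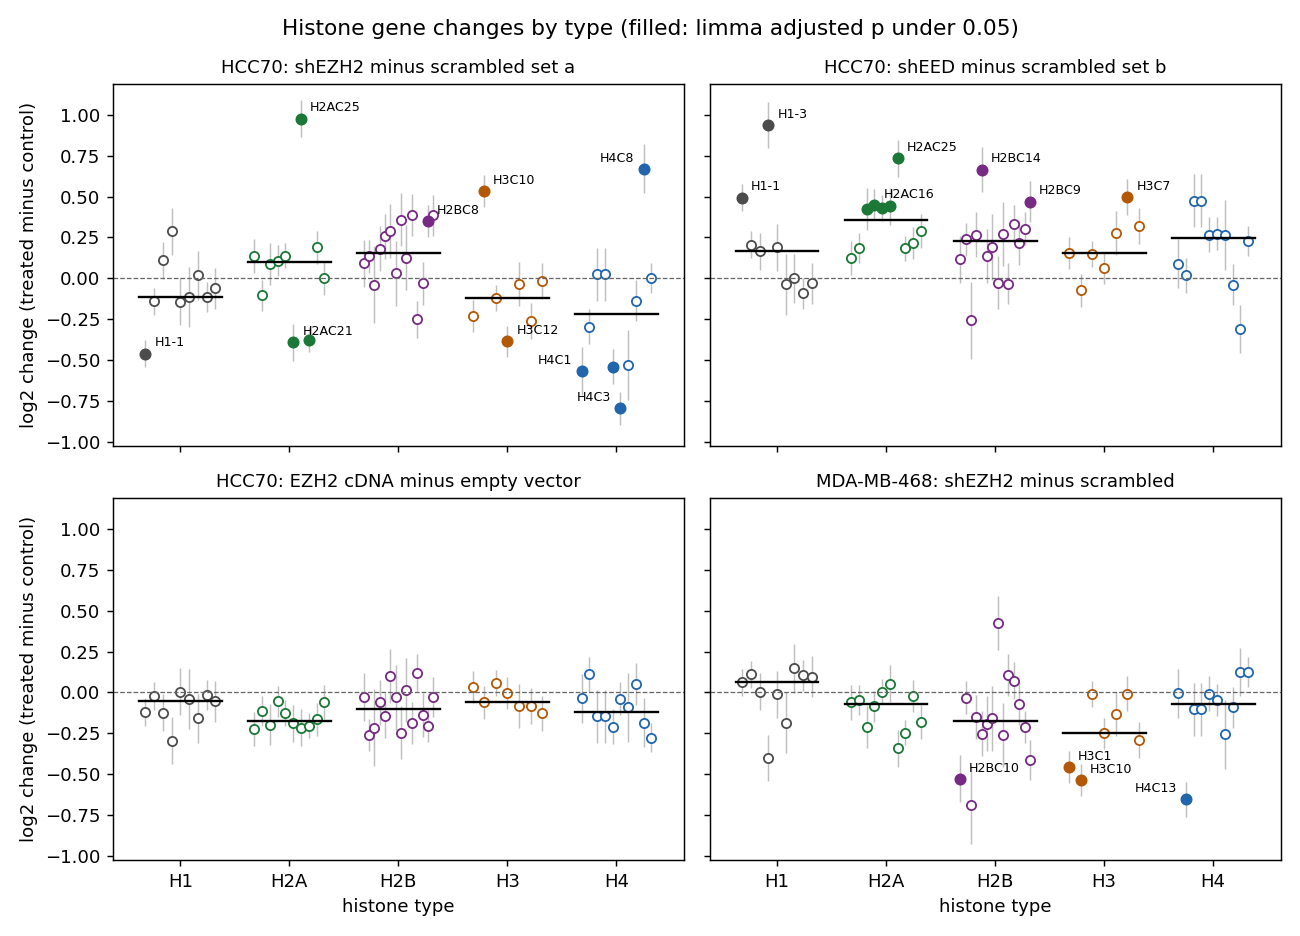
Log2 change of each of the 50 histone genes (y axis, treated minus control) by histone type (x axis) in the 4 treatments, with standard errors as grey bars and the median of each type as a black line. Filled points passed the test, and names stand beside the largest of them: shEZH2 in HCC70 moved genes both ways, shEED moved 10 up, EZH2 cDNA moved none past the threshold, and shEZH2 in MDA-MB-468 moved 4 down.

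In HCC70 cells with EZH2 knockdown, histone genes were called in both directions, within types as well as between them. Higher calls lay near their share over all clusters, and lower calls above theirs. H2AC25, H4C8, H3C10 and H2BC8 rose, and H4C3, H4C1, H4C2, H1-1, H2AC21, H3C12 and H2AC4 fell. That is 4 higher (8%) and 7 lower (14%) of 50, against 7.30% called higher and 4.06% called lower among all clusters tested, with a call meaning a Benjamini-Hochberg adjusted p under 0.05 in limma. The median change of the 50 genes was near 0 (0.0020), as it was over all tested clusters (0.0083). Both shEZH2 arrays lay above both control arrays for 15 genes and below for 17, against 28.2% and 25.1% of all clusters.

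H4 genes carried the strongest split. H4C3 had 9.33 and 9.54 in shEZH2 cells, against 10.24 and 10.22 in set a. This is a fall of 0.80 ± 0.10 (1.74-fold, limma adjusted p = 0.00042), with no overlap of the groups. H4C2 had 8.59 and 8.82 in shEZH2 cells and 9.33 and 9.17 in set a, a fall of 0.54 ± 0.11 (limma adjusted p = 0.0078). H4C1 had 6.94 and 7.33 in shEZH2 cells, against 7.61 and 7.79 in set a (-0.57 ± 0.15, limma adjusted p = 0.030). H4C8, which encodes the same protein, went the other way. It had 10.32 and 10.22 in shEZH2 cells and 9.65 and 9.55 in set a (0.67 ± 0.15, 1.59-fold, limma adjusted p = 0.014). Over the 10 H4 genes, 1 rose and 3 fell, with a median change of -0.22. H4C4 had 7.24 and 6.77 in shEZH2 cells, against 7.50 and 7.56 in set a, without passing the test, and the identical H4C14 and H4C15 clusters averaged 10.14 in shEZH2 cells and 10.11 in set a.

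Promoters of H4C8, which rose, and H4C2, which fell, both hold GGTCCG 46 bases before the start, and H4C2 alone has TATAAA in the stretch shown. The 150 bases before each start follow in lower case, with motif matches in capitals. H4C8 lies on the minus strand at chr6:26285535-26285684 and H4C2 on the minus strand at chr6:26027284-26027433.
H4C8: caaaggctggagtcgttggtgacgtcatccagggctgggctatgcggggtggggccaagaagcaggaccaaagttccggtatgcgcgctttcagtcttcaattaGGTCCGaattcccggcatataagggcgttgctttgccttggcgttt
H4C2: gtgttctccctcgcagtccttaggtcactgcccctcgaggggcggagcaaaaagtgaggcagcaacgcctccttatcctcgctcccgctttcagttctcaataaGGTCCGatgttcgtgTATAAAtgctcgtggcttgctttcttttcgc

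**Figure D2:**
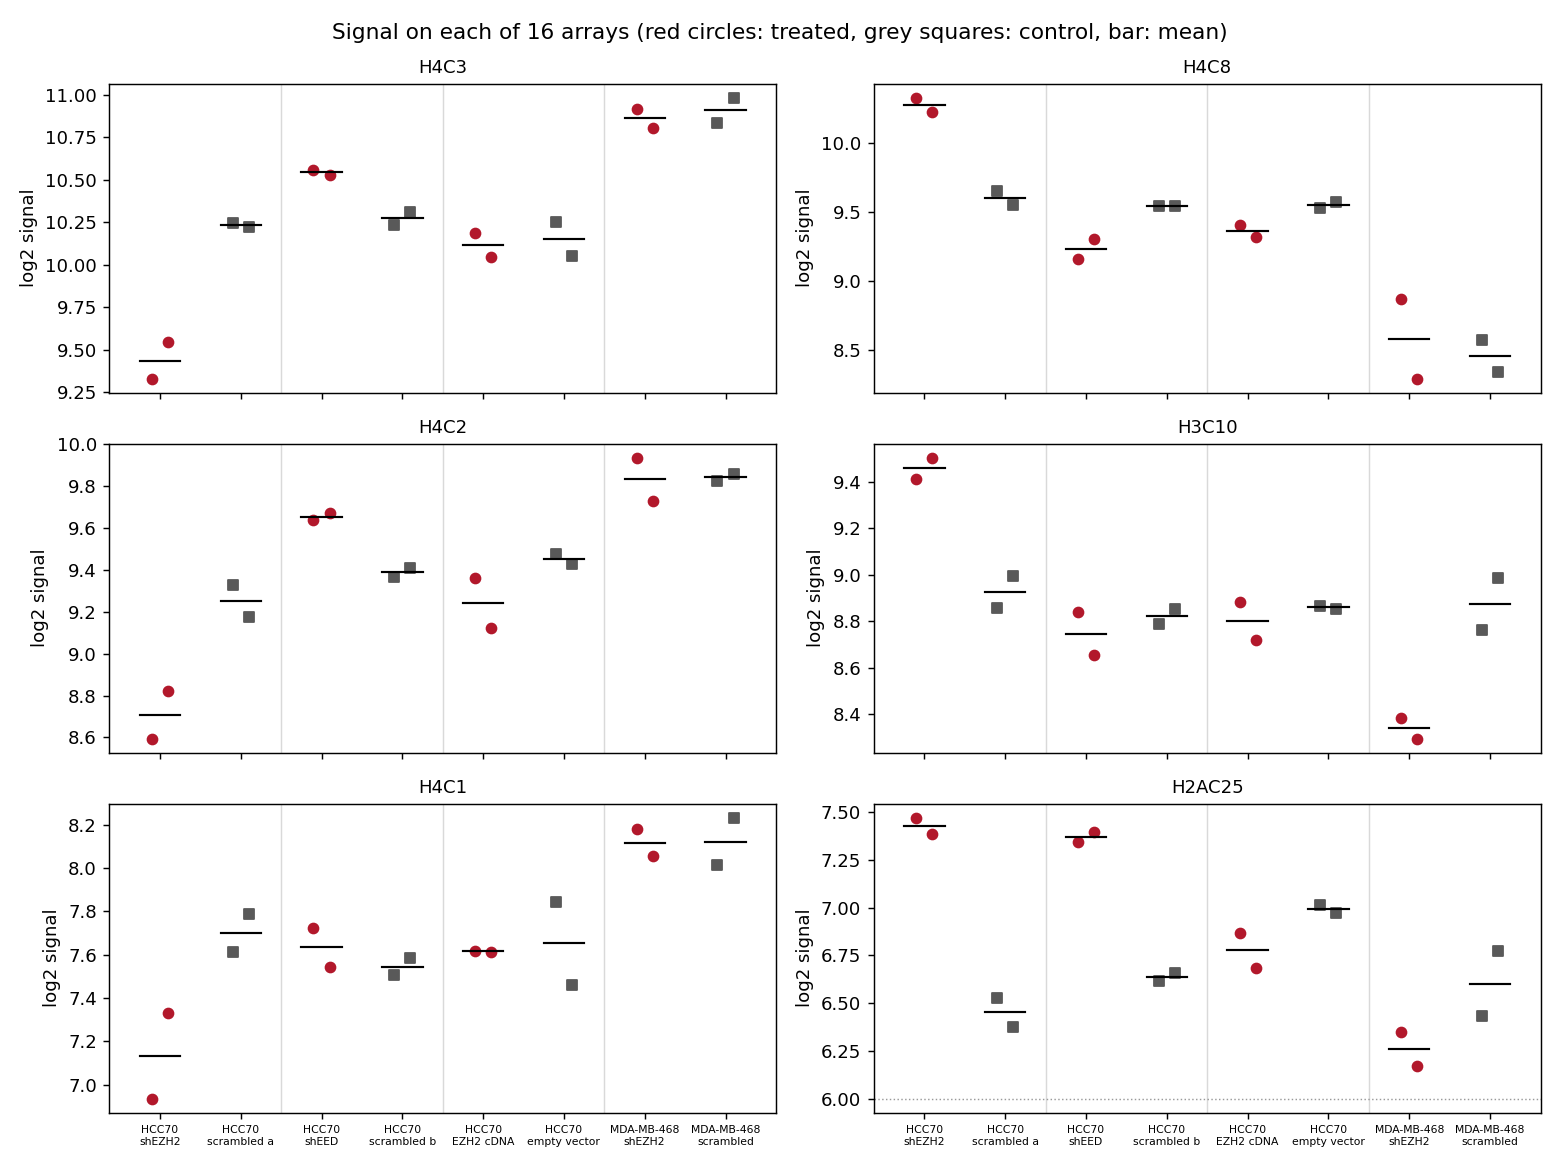
Log2 signal (y axis) on each of the 16 arrays for the 6 genes with the largest called changes in HCC70 shEZH2 cells, by group (x axis); red circles are treated arrays, grey squares controls, and bars are the means of 2. H4C3, H4C2 and H4C1 are lowest in HCC70 shEZH2 cells, while H4C8 and H3C10 are highest there; H2AC25 is high in both HCC70 knockdowns.

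Among H2A genes, H2AC25 rose and the others moved less. H2AC25, formerly HIST3H2A, belongs to the small cluster at the far end of chromosome 1 and had 7.47 and 7.39 in shEZH2 cells, against 6.53 and 6.38 in set a. The rise of 0.98 ± 0.11 (1.97-fold, limma adjusted p = 0.00023) was the largest of the 50 in this comparison. H2AC21 and H2AC4 fell by 0.39 and 0.38, and the H2A median was 0.10. The neighbour of H2AC25, H2BC26, reached the floor on 1 array only and was not tested, with 6.15 and 5.97 in shEZH2 cells and 5.29 and 5.61 in set a.

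H3 genes also split. H3C10 had 9.41 and 9.50 in shEZH2 cells, against 8.86 and 8.99 in set a (0.53 ± 0.10, limma adjusted p = 0.0057). H3C12 fell by 0.39 ± 0.10 (limma adjusted p = 0.023), and 6 of the 7 H3 genes were below 0. Of the H2B genes, 11 of 14 were above 0 against set a (median 0.16) and 7 of 14 against set b (median -0.01). H2BC8 passed the test against set a at 0.35 ± 0.10 (limma adjusted p = 0.043) and not against set b (0.25, limma adjusted p = 0.084). Of H1 genes, H1-1 fell by 0.46 ± 0.08 (limma adjusted p = 0.0046), with 8.30 and 8.35 in shEZH2 cells and 8.76 and 8.81 in set a. H1-4 and H1-5 were uneven between the shEZH2 arrays: H1-5 had 11.33 and 10.51, an SD of 0.57, against 11.11 and 10.96 in set a.

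The starts of H3C10 (plus strand, chr6:27809901-27810050) and H2AC25 (minus strand, chr1:228457874-228458023) are shown because both genes separated the cell lines, as described further on. H3C10 has TATAAA 32 bases and CCAAT 54 and 96 bases before its start. H2AC25 has CCAAT on each strand, the opposite-strand copy reading ATTGG, and no exact TATAAA.
H3C10: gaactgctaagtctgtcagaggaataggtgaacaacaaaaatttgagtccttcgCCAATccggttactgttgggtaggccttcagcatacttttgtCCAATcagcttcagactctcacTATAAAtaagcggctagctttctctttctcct
H2AC25: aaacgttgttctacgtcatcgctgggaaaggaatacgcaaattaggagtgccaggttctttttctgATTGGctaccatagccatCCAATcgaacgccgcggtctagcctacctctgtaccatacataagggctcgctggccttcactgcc

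The counts in HCC70 shEZH2 cells depended on the control arrays. Without set a replicate 1, 3 of the 11 calls remained (1 higher, 2 lower), and without set a replicate 2, 6 remained (2 higher, 4 lower). H4C3, H2AC25 and H1-1 were called with either left out. H4C8, H4C1, H3C12, H2AC21 and H2BC8 lost their calls with either left out. H4C2, H3C10 and H2AC4 lost theirs only without set a replicate 1. H3C12 and H2BC8 also lost their calls with arrays centred on their medians. With set b as the control, 6 genes were called higher and 13 lower, 8 of the 11 calls remaining (without H2AC21, H2BC8 and H4C1). The change of 13 of the 50 genes then had the opposite sign, among them H2BC9 (0.39 against set a, -0.12 against set b), H1-2 (0.11 and -0.27) and H3C8 (-0.02 and 0.58, called higher). With the spread estimated from these 4 arrays alone, 1 was called higher and 1 lower.

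EED knockdown in HCC70 cells moved histone genes upward across H1, H2A, H2B and H3. Of 50 genes, 10 rose (20%) and 0 fell, against 6.63% called higher and 7.53% called lower among all clusters. At an unadjusted p under 0.05, 22 were higher and 0 lower in limma, against 14.6% and 12.7% of all clusters. Changes were above 0 for 40 of 50 genes, against 55% of all clusters, and their median was 0.22, against 0.024. Both shEED arrays lay above both set b arrays for 36 genes and below for 3, against 38.2% and 30.3% of all clusters.

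H2A genes moved most evenly. All 10 were above 0, with both shEED arrays above both set b arrays, and 5 were called: H2AC25, H2AC16, H2AC21, H2AC20 and H2AC15. H2AC25 had 7.34 and 7.40 in shEED cells, against 6.61 and 6.66 in set b (0.74 ± 0.11, 1.66-fold, limma adjusted p = 0.0012). The other 4 rose by 0.42 to 0.45. H2AC21 rose here by 0.44 ± 0.11, although it fell in shEZH2 cells.

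Of the linker histones, H1-3 and H1-1 rose. H1-3 had 9.13 and 9.24 in shEED cells, against 8.19 and 8.31 in set b, a rise of 0.94 ± 0.14 (1.92-fold, limma adjusted p = 0.0011). H1-1 had 9.36 and 9.31 in shEED cells, against 8.82 and 8.87 in set b (0.49 ± 0.08, limma adjusted p = 0.0022). Both lie in a stretch of chromosome 6 that holds 24 of the 50 genes, of which 4 rose and 21 were above 0. The H1-3 start (minus strand, chr6:26234988-26235137) is shown because its gene had the largest change of this comparison, and it holds TATAAA 30 and CCAAT 55 bases before the start.
H1-3: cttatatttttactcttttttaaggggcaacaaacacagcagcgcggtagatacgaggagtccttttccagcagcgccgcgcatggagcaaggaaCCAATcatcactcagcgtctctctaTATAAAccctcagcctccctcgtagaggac

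H2BC14, H2BC9 and H3C7 also rose. H2BC14 had 11.44 and 11.50 in shEED cells, against 10.71 and 10.91 in set b (0.67 ± 0.14, limma adjusted p = 0.0067). H3C7 had 9.34 and 9.46 in shEED cells and 8.89 and 8.91 in set b (0.50 ± 0.11, limma adjusted p = 0.010). H2BC9, the head-to-head neighbour of H3C7, had 10.31 and 10.44 in shEED cells, against 9.92 and 9.90 in set b (0.47 ± 0.12, limma adjusted p = 0.026). None of the 10 H4 genes was called, although 8 were above 0 and 5 had an unadjusted p under 0.05 in limma. These counts take the identical H4C14 and H4C15 clusters separately. H4C14 and H4C15 had 10.34 and 10.24 in shEED cells, against 9.74 and 9.89 in set b (0.48 ± 0.16, limma adjusted p = 0.077). H4C8 lay lower, at 9.16 and 9.31 in shEED cells, against 9.54 and 9.54 in set b, and missed the threshold (-0.31 ± 0.15, limma adjusted p = 0.21).

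Between 4 and 7 calls remained when each array of this comparison was left out in turn. The lowest count was 4, without set b replicate 1 or without shEED replicate 2, and it was 5 without set b replicate 2. With set a as the control, 24 genes were called higher, and with both sets 21, with 9 and 10 of the 10 calls among them.

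**Figure D3:**
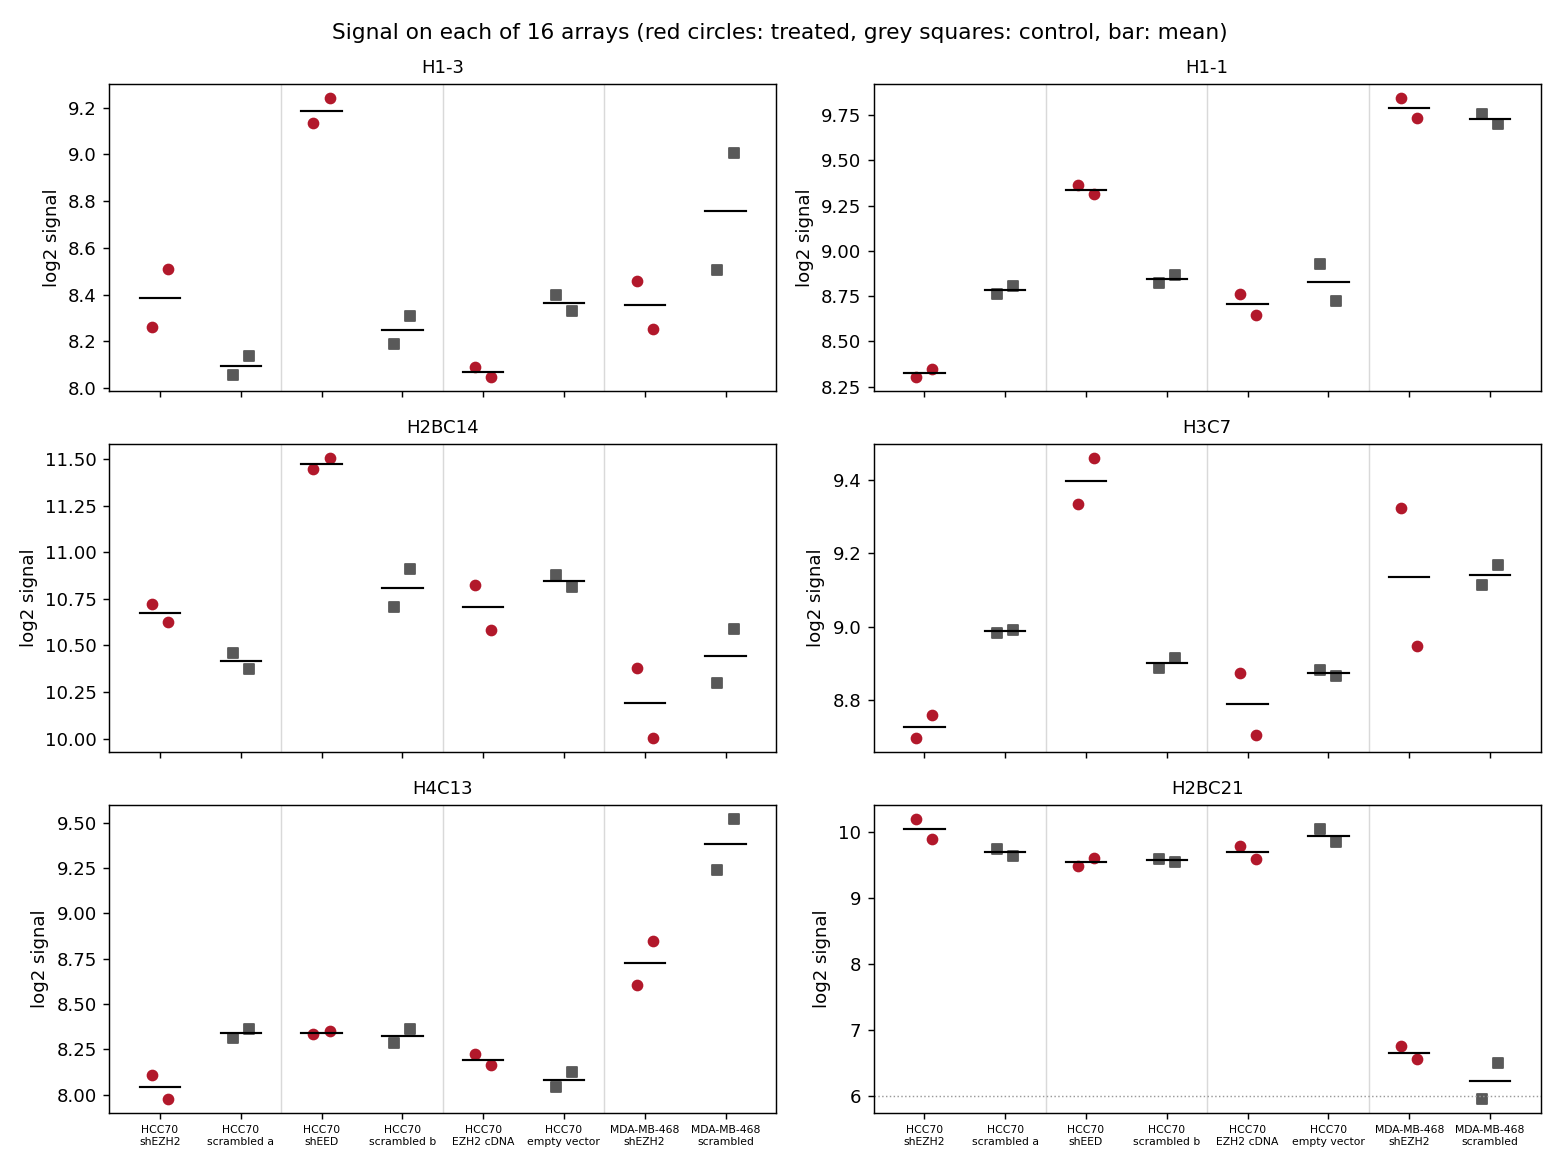
Log2 signal (y axis) on each of the 16 arrays for 6 further genes by group (x axis), drawn as red circles for treated arrays, grey squares for controls and bars for the means of 2. H1-3, H2BC14 and H3C7 are highest in HCC70 shEED cells, H4C13 is highest in MDA-MB-468 scrambled cells, and H2BC21 lies far lower in MDA-MB-468 than in HCC70; the dotted line marks the floor.

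The changes in HCC70 shEZH2 cells against set a and in shEED cells against set b differed for 8 histone genes. This contrast was added after the values had been seen. The labels do not state which set belongs to which knockdown, and the contrast was not run with the sets exchanged. The shEED change was the higher for H4C3 (by 1.07 ± 0.14, limma adjusted p = 0.00087), H1-1 (0.96 ± 0.12), H2AC21 (0.83 ± 0.16), H4C2 (0.81 ± 0.15), H3C7 (0.76 ± 0.15) and H2AC4 (0.56 ± 0.11). It was the lower for H4C8 (-0.98 ± 0.21, limma adjusted p = 0.018) and H3C10 (-0.61 ± 0.14, limma adjusted p = 0.026). That is 6 higher (12%) and 2 lower (4%) of 50, against 1.96% and 4.35% of all clusters, or 6.31% either way. The 2 lower calls numbered 0 without set b replicate 1 or set b replicate 2, and 1 without any of the other HCC70 shEED, shEZH2 or set a arrays except shEZH2 replicate 1. H2AC25 was called higher in both knockdowns, and the difference between them was -0.24 ± 0.16.

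The 2 scrambled sets of HCC70 were not alike. Set b was above set a for H1-5 (0.65 ± 0.19), H2BC9 (0.50 ± 0.12), H1-4 (0.46 ± 0.14), H1-2 (0.38 ± 0.11) and H2AC20 (0.38 ± 0.08), and below it for H3C8 (-0.60 ± 0.11), with limma adjusted p between 0.0028 and 0.039. These 5 higher and 1 lower of 50 stand against 15.3% and 7.41% of all clusters. Both set b arrays lay above both set a arrays for 22 genes and below for 17, against 39.6% and 35.2% of all clusters. The count of higher calls was 1 without set a replicate 1, set a replicate 2 or set b replicate 1, and 0 without set b replicate 2. H3C8 had 7.01 and 7.03 in set b, against 7.62 and 7.61 in set a, a gap larger than that of any H3 gene in either HCC70 knockdown.

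EZH2 cDNA in HCC70 cells called 0 histone genes in limma. Calls were rare in this comparison, at 0.909% higher and 0.0680% lower of all clusters. At an unadjusted p under 0.05, 0 were higher and 3 lower (6%), against 7.81% and 2.54% of all clusters. The changes lay between -0.30 and 0.12, with 42 of 50 below 0 and a median of -0.10, against a median of 0.022 over all clusters. Both EZH2 cDNA arrays lay below both empty vector arrays for 17 genes and above for 2, against 13.6% and 25.8% of all clusters.

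The genes with the largest differences under EZH2 cDNA were H1-3, H4C9 and H2BC11. H1-3 had 8.09 and 8.05 with EZH2 cDNA, against 8.40 and 8.33 with empty vector (-0.30, interval -0.61 to 0.02, limma adjusted p = 0.52). H4C9, close to the floor, had 5.91 and 5.64 with EZH2 cDNA and 6.03 and 6.07 with empty vector (-0.28, limma adjusted p = 0.25). H2BC11 had 7.11 and 6.99 with EZH2 cDNA, against 7.28 and 7.34 with empty vector (-0.26, limma adjusted p = 0.37). In each of the 3 the arrays did not overlap, and none passed the test. All 10 H2A genes were below 0 (median -0.18), 8 of them with no overlap of the arrays. The 95% interval for H2AC25 ran from -0.46 to 0.03 and that for H4C3 from -0.26 to 0.18.

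EZH2 knockdown in MDA-MB-468 cells lowered H4C13, H3C10 and H3C1, called H2BC10 lower near the floor, and raised 0 histone genes. The 4 lower calls are 8% of 50, against 5.57% of all clusters, and 2.73% of all clusters were called higher. At an unadjusted p under 0.05, 1 gene was higher and 11 lower in limma, against 10% and 15.8% of all clusters. The median change was -0.089, against -0.021 over all clusters, with 37 of 50 below 0, against 54.4% of all clusters. Both shEZH2 arrays lay below both control arrays for 15 genes and above for 6, against 29.0% and 22.3% of all clusters.

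H4C13, an H4 gene of the distal chromosome 6 cluster, had 8.60 and 8.85 in MDA-MB-468 shEZH2 cells, against 9.24 and 9.52 in scrambled cells. It fell by 0.65 ± 0.11 (1.57-fold, limma adjusted p = 0.0047). H3C10 had 8.38 and 8.29 in shEZH2 cells, against 8.76 and 8.98 in scrambled cells (-0.54 ± 0.10, limma adjusted p = 0.0099). In neither gene did the arrays overlap. H3C1 had 8.24 and 8.14 in shEZH2 cells, against 8.51 and 8.78 in scrambled cells (-0.46 ± 0.10, limma adjusted p = 0.019). H2BC10 had 6.00 and 5.94 in shEZH2 cells, at the floor, against 6.24 and 6.76 in scrambled cells (-0.53 ± 0.14, limma adjusted p = 0.045), and was below the floor on all HCC70 arrays. It passed the floor only through 3 MDA-MB-468 arrays, and its call was lost with a floor of log2 7 and with no floor, where the other 3 calls remained.

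All 7 H3 genes were below 0 in MDA-MB-468 shEZH2 cells, with a median of -0.25 and 2 calls. The 11 genes of the distal chromosome 6 cluster, from H2BC13 to H2BC17, were likewise all below 0, with a median of -0.19 and 2 calls, H3C10 and H4C13. H4C3, H4C2 and H4C1, which fell in HCC70, changed by -0.046, -0.0088 and -0.0050 here. H2BC12 had 7.70 and 8.19 in shEZH2 cells, against 8.31 and 8.96 in scrambled cells, a difference of -0.69 ± 0.24 that missed the threshold (limma adjusted p = 0.093). The calls turned on the control arrays: 0 remained without scrambled replicate 2, the higher array for each of the 4 genes, 8 were called without scrambled replicate 1, and 2 of the 4 remained without shEZH2 replicate 2. With the spread estimated from these 4 arrays alone, 0 were called.

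**Figure D4:**
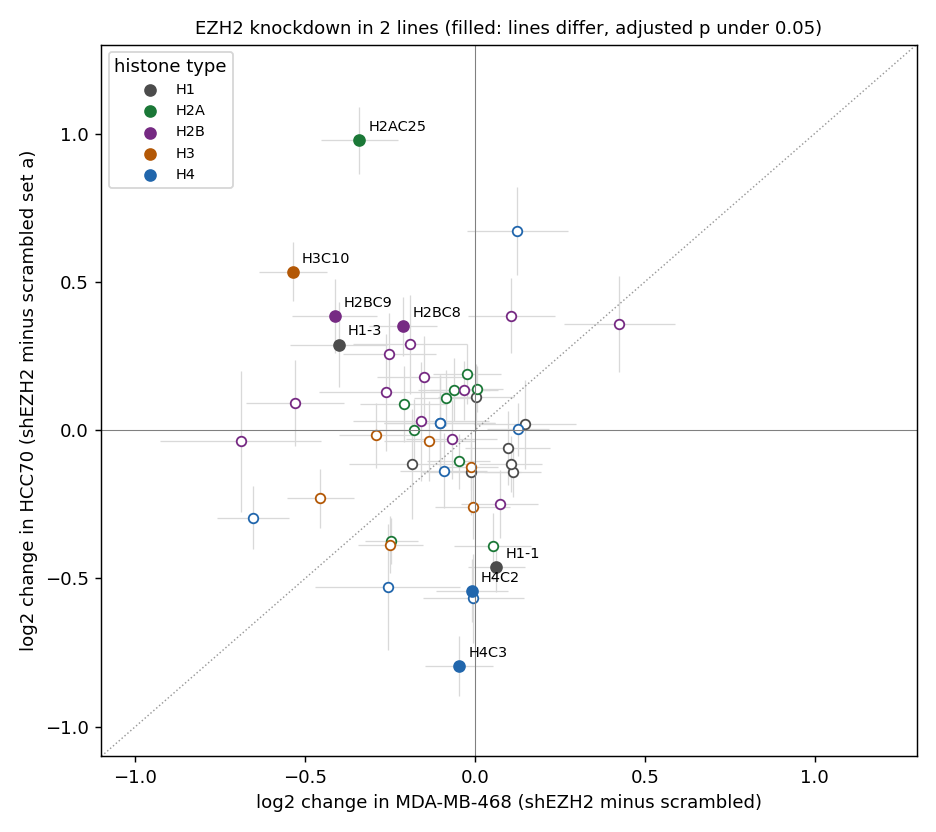
Log2 change on EZH2 knockdown in MDA-MB-468 (x axis) and HCC70 (y axis) for the 50 histone genes, with standard errors as grey bars and the dotted line marking equal change. Filled, named points are the 8 genes whose change differed between the lines; H2AC25, H3C10, H2BC9, H2BC8 and H1-3 lie above the line and H1-1, H4C2 and H4C3 below it.

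The response to EZH2 knockdown differed between the cell lines for 8 of 50 histone genes in a test of the difference itself, against 13.2% of all clusters called. The change was higher in HCC70 for 5 and lower for 3, against 8.97% and 4.27% of all clusters. H3C10 was called in both lines and in opposite directions, with a difference of 1.07 ± 0.14 (limma adjusted p = 0.00092). H2AC25 differed by 1.32 ± 0.16 (limma adjusted p = 0.00054): it rose in HCC70 and had 6.35 and 6.17 in MDA-MB-468 shEZH2 cells, against 6.43 and 6.77 in scrambled cells. H2BC9 differed by 0.80 ± 0.18, H1-3 by 0.69 ± 0.20 and H2BC8 by 0.56 ± 0.14. Of these, H2BC9 and H1-3 were called in neither line alone, and both lost the call for the difference with set b as the HCC70 control (0.30 and 0.54, limma adjusted p = 0.286 and 0.0948), where H2BC9 changed by -0.12 in HCC70. H4C3 (-0.75 ± 0.14), H4C2 (-0.53 ± 0.15) and H1-1 (-0.52 ± 0.12) fell in HCC70 and were within 0.062 of no change in MDA-MB-468.

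These counts moved when an array was left out. Without set a replicate 1, set a replicate 2, MDA-MB-468 scrambled replicate 2 or MDA-MB-468 shEZH2 replicate 2, 3 genes were called higher. The number was 8 without MDA-MB-468 scrambled replicate 1 and 9 without MDA-MB-468 shEZH2 replicate 1. Of lower calls there was 1 without set a replicate 2 or MDA-MB-468 scrambled replicate 2, 6 without HCC70 shEZH2 replicate 2 and 5 without MDA-MB-468 shEZH2 replicate 2.

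Across all 8 groups, the genes that fell or rose on EZH2 knockdown in HCC70 had distinct orders of level. H4C3 averaged 9.44 ± 0.15 in HCC70 shEZH2, 10.55 ± 0.02 in shEED, 10.11 ± 0.10 in EZH2 cDNA and 10.86 ± 0.08 in MDA-MB-468 shEZH2 cells (SD, n = 2 each). Its controls averaged 10.23 ± 0.01 in set a, 10.27 ± 0.05 in set b, 10.15 ± 0.14 with empty vector and 10.91 ± 0.11 in MDA-MB-468 scrambled cells. HCC70 shEZH2 was thus the lowest group, both EZH2 cDNA arrays (10.19 and 10.04) lay below the arrays of set a and set b and overlapped those with empty vector, and MDA-MB-468 was highest. H1-1 had the same lowest group, at 8.32 ± 0.03 in HCC70 shEZH2 cells, with 9.34 ± 0.04 in shEED cells and 8.78 to 8.84 in the 3 HCC70 controls.

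H2AC25 averaged 7.43 ± 0.06 in HCC70 shEZH2, 7.37 ± 0.04 in shEED, 6.78 ± 0.13 in EZH2 cDNA and 6.26 ± 0.12 in MDA-MB-468 shEZH2 cells. The 3 HCC70 controls ran from 6.45 ± 0.11 in set a over 6.64 ± 0.03 in set b to 6.99 ± 0.03 with empty vector, a range wider than their SDs, and both knockdowns lay above all 3. H4C8 averaged 10.27 ± 0.07 in HCC70 shEZH2 cells and 9.23 ± 0.11 in shEED cells, against 9.54 to 9.60 in the 3 HCC70 controls, and was lowest in MDA-MB-468, at 8.58 ± 0.40 in shEZH2 and 8.46 ± 0.16 in scrambled cells.

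In the scrambled controls, HCC70 set a and MDA-MB-468 differed for most histone genes, as they did for most of the clusters tested. Of 50 genes, 8 were higher and 23 lower in HCC70, against 30.3% and 36.7% of all clusters, or 67.1% either way. Of the higher calls, H4C9 averaged 5.70 in set a and 5.17 in MDA-MB-468, and H1-9P 6.05 and 5.74. These passed the floor only through HCC70 arrays, so their calls are tied to how the genes were chosen. H1-8, at 6.25 and 5.95, was also near the floor, and none of these genes reached a floor of log2 7. Both HCC70 arrays lay above both MDA-MB-468 arrays for 10 genes and below for 30, against 40.8% and 45.4% of all clusters. The median difference was -0.23, against -0.033. These control arrays are those of the EZH2 knockdown comparisons. H3 genes were lower in HCC70 for 5 of 7 and higher for 0, H2A genes lower for 5 of 10 and higher for 1, and the clustered linker genes H1-1 to H1-5 were all lower, by 0.37 to 0.99. Against set b, H1-1 and H1-3 remained lower in HCC70 (-0.88 and -0.51), while H1-2, H1-4 and H1-5 lost their calls, with H1-2 at 8.44 in set b and 8.43 in MDA-MB-468. Of the 31 calls, 21 remained with set b.

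H2BC21 stood apart from its type. H2BC21, formerly HIST2H2BE, had 9.75 and 9.64 in HCC70 set a, against 5.95 and 6.50 in MDA-MB-468 scrambled cells, where it lay around the floor. The fitted difference was 3.47 ± 0.16 (limma adjusted p = 4.9e-09), and its size is uncertain because signals at the floor are close to background. On the 12 HCC70 arrays it ran between 9.49 and 10.20, and on the 4 MDA-MB-468 arrays between 5.95 and 6.75. H2BC12 was also higher, at 10.50 and 10.59 in HCC70 set a, against 8.31 and 8.96 in MDA-MB-468 (1.91 ± 0.24, limma adjusted p = 2.0e-05). H4C8 had 9.65 and 9.55 in HCC70 set a and 8.57 and 8.34 in MDA-MB-468 (1.14 ± 0.15). H1-10, a linker gene outside the clusters whose message is polyadenylated, was higher by 1.08 ± 0.08. In the other direction, H3C1 was lower by 1.46, H2BC9 by 1.10 and H4C13 by 1.04 on the log2 scale. H2BC10 was also called lower, at 4.83 and 4.61 on the set a arrays, against 6.24 and 6.76 in MDA-MB-468. The set a values lie below the floor, so the size of its difference is not given. H2BC10 passed the floor only through MDA-MB-468 arrays, so its lower call is also tied to how the genes were chosen.

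**Figure D5:**
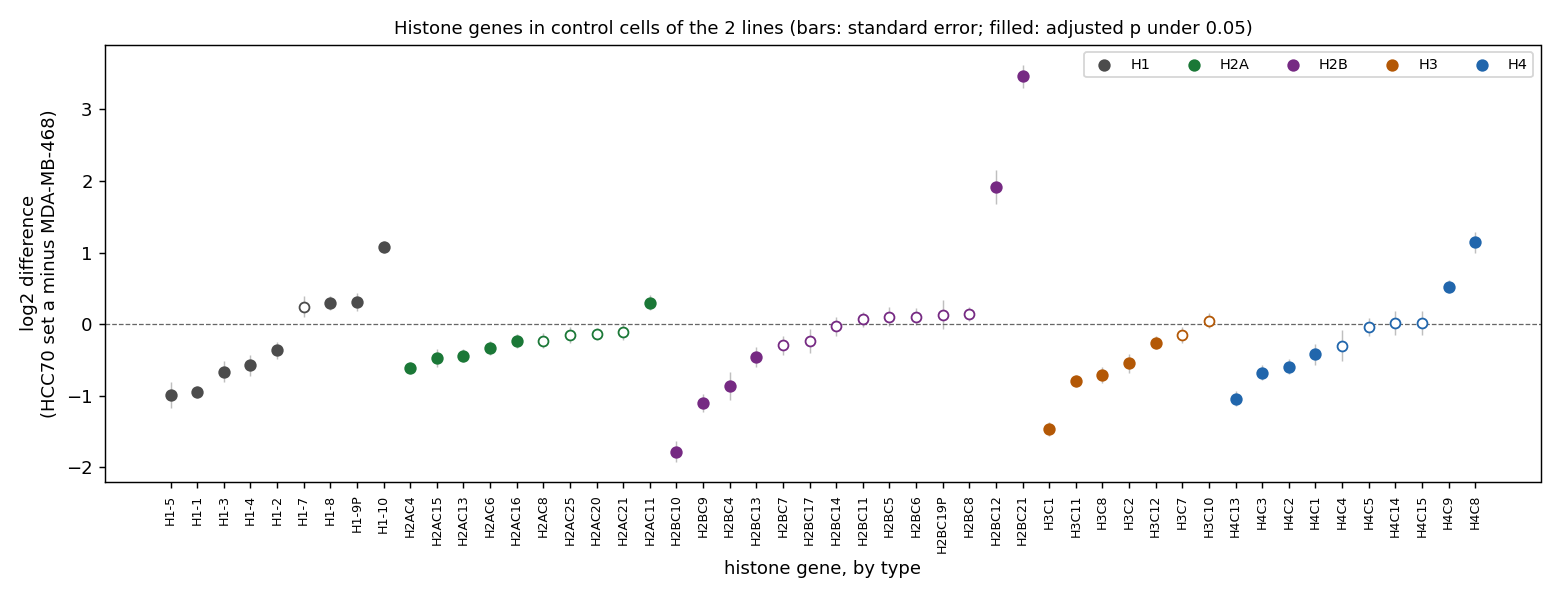
Log2 difference (y axis, HCC70 scrambled set a minus MDA-MB-468 scrambled, standard errors as bars) for each of the 50 histone genes, grouped by type and ordered by size (x axis). Filled points passed the test: 8 genes lie above 0, led by H2BC21 at 3.47, and 23 below, among them H3C1 at -1.46. H2BC21 in MDA-MB-468 and H2BC10 in HCC70 lay around or below the floor, so the sizes of these differences are uncertain.

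The H2BC21 start (minus strand, chr1:149886683-149886832) is shown because its gene had the largest difference between the lines. It holds TATAAA 30 and the octamer 46 bases before the start, a pair of CCAAT copies, and GGTCCG on both strands, of which the opposite-strand copy, CGGACC, overlaps a CCAAT.
H2BC21: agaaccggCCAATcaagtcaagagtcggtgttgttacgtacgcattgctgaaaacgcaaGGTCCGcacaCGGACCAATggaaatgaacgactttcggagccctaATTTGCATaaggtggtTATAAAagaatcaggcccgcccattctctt

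H2BC21 shares this stretch with H2AC20, whose start lies 236 bases away on the other strand, yet H2AC20 differed by -0.14 between the lines (10.92 and 10.98 in HCC70 set a, 11.08 and 11.10 in MDA-MB-468). In shEED cells H2AC20 rose by 0.43 ± 0.08 and H2BC21 changed by -0.03 ± 0.16. The 44 genes with a promoter window hold 6 such head-to-head pairs, with starts no more than 1000 bases apart. The 6 genes without a window were not searched. Both genes of a pair were called the same way in 1 of 6 pairs in shEED cells (H3C7 and H2BC9), in 0 of 6 in shEZH2 cells of either line, and in 2 of 6 between the lines (H2BC4 with H2AC6, and H2BC13 with H2AC13). No pair was called in opposite directions in these 4 comparisons.

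Genes that make and process histone messages, a list of 27 with 25 tested, had 0 to 2 calls in each treatment. Of all clusters, 7.30% were called higher and 4.06% lower in HCC70 shEZH2 cells, and 6.63% and 7.53% in shEED cells. The shares were 0.909% and 0.0680% with EZH2 cDNA, and 2.73% and 5.57% in MDA-MB-468 shEZH2 cells. In HCC70 shEZH2 cells 0 rose and 2 fell (unadjusted p under 0.05 for 3 and 2), namely COIL, the scaffold of Cajal bodies (-0.48 ± 0.10), and GMNN (-0.37 ± 0.10), the inhibitor of replication licensing. In shEED cells NCBP2, a cap-binding subunit (0.52 ± 0.11), and CPSF1, of the cleavage complex (0.47 ± 0.14), rose and 0 fell (6 and 1 at an unadjusted p under 0.05). In MDA-MB-468 shEZH2 cells CASP8AP2, which recruits the histone cleavage factors (-0.54 ± 0.13), and COIL (-0.38 ± 0.10) fell and 0 rose (9 of 25 lower and 1 higher at an unadjusted p under 0.05, against 15.8% and 10% of all clusters). Under EZH2 cDNA 0 were called (0 higher and 2 lower at an unadjusted p under 0.05). At that p, the shares of all clusters higher and lower were 15.3% and 10.8% in HCC70 shEZH2 cells. They were 14.6% and 12.7% in shEED cells, and 7.81% and 2.54% with EZH2 cDNA. The list medians were 0.081 in HCC70 shEZH2, 0.046 in shEED, 0.014 with EZH2 cDNA and -0.13 in MDA-MB-468 shEZH2 cells, the last against -0.021 over all clusters.

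S phase genes, a list of 26 with 25 tested, were measured because histone transcription belongs to that phase. In HCC70 shEZH2 cells 0 were called (0 higher and 1 lower at an unadjusted p under 0.05 in limma) and the median was 0.051. Of all clusters, 7.30% were called higher and 4.06% lower there, and 15.3% and 10.8% had such an unadjusted p. In shEED cells 3 rose, GINS1 (0.50), RRM1 (0.42) and PCNA (0.30), against 6.63% of all clusters called higher. The helicase subunits MCM5 (-0.38) and MCM4 (-0.27) fell, against 7.53% called lower, and the median was 0.011. With an unadjusted p under 0.05 in limma, 4 were higher and 4 lower, against 14.6% and 12.7% of all clusters. Under EZH2 cDNA 0 were called (1 higher and 1 lower at an unadjusted p under 0.05). The shares of all clusters were 0.909% and 0.0680% called, and 7.81% and 2.54% at that unadjusted p. In MDA-MB-468 shEZH2 cells 5.57% of all clusters were called lower and 2.73% higher. There MCM6 (-0.58) and the polymerase subunit POLA1 (-0.34) fell, 0 rose, and the list median was -0.021. At an unadjusted p under 0.05, 1 was higher and 6 lower, against 10% and 15.8% of all clusters. The part of S phase content in the histone changes was not tested.

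Of 9 growth arrest genes tested, CDKN1A rose (0.48) and GADD45A fell (-0.44) in HCC70 shEZH2 cells, and CDKN2D rose (0.54) and CDKN2B fell (-0.38) in shEED cells. Of all clusters, 7.30% were called higher and 4.06% lower in HCC70 shEZH2 cells, and 6.63% and 7.53% in shEED cells. With EZH2 cDNA, 0.909% of all clusters were called higher. GADD45A rose under EZH2 cDNA (0.53), and 0 were called in MDA-MB-468 shEZH2 cells, with 0 at an unadjusted p under 0.05 in limma. Of all clusters in that comparison, 2.73% were called higher and 5.57% lower, and 10% and 15.8% had such an unadjusted p.

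Replication-independent histone variants, made throughout the cell cycle, were called only once in each of the 4 treatments, and each time the gene was MACROH2A2. Of 9 tested, among them H1-10 of the 50 genes above, MACROH2A2, a macroH2A of silent chromatin, fell by 0.73 ± 0.10 in HCC70 shEZH2 and by 0.94 ± 0.10 in shEED cells, and rose by 0.52 ± 0.10 with EZH2 cDNA and by 0.43 ± 0.10 in MDA-MB-468 shEZH2 cells. Of 17 histone chaperones, ATRX rose (0.35) in HCC70 shEZH2 cells, and HJURP, which loads CENPA, rose (0.37) and SSRP1 of the FACT complex fell (-0.48) in shEED cells. The other comparisons called 0 (0 higher and 1 lower under EZH2 cDNA, 2 and 2 in MDA-MB-468 shEZH2 cells, at an unadjusted p under 0.05 in limma). At that p, 7.81% of all clusters were higher and 2.54% lower under EZH2 cDNA, and 10% and 15.8% in MDA-MB-468 shEZH2 cells. For variants and chaperones alike, the shares over all clusters were 7.30% higher and 4.06% lower in HCC70 shEZH2 cells. They were 6.63% and 7.53% in shEED cells, 0.909% and 0.0680% with EZH2 cDNA, and 2.73% and 5.57% in MDA-MB-468 shEZH2 cells.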

How the data were processed

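The deposited values are RMA log2 signals per transcript cluster of a whole-transcript array, made by the authors from total RNA with Affymetrix Expression Console, per the submitters' processing notes. The sources used here give no versions, genome build or annotation. Whole-transcript labelling, the kit per the labels, does not need a poly(A) tail. Symbols came from the platform annotation: 19460 clusters have 1 symbol, 1754 several and 12083 none, and all 50 histone genes matched RefSeq by Entrez ID.

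limma 3.58.1 (R 4.3.3) fitted 8 group means to all 16 arrays (8 residual and 3.69 prior degrees of freedom), without a block, over the 16175 clusters with at least 2 of 16 arrays at log2 6. P-values were adjusted by Benjamini-Hochberg over all of them in each contrast and called at 0.05. With 2 arrays per group, p-values cover only the spread between these arrays, which may be technical, and their number limits precision. Intervals are 95%. The fit was tested on simulated data.

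In each of the 4 treatments the text names called genes, up to the 6 with the largest change, and at least 3. Other called genes, the baseline and set-to-set differences and the printed promoters were picked after their values were seen. The members and lists were chosen with earlier results of these data known. Same-numbered arrays deviated from their group means with correlations of 0.077, -0.002, 0.002 and -0.023, so little shared deviation was seen. Whether same-numbered arrays were prepared together is not known. Alternatives were the floor, the scaling, the control set, the spread estimate, the variance prior, single-symbol clusters, a replicate block and leaving out each array. Of 20 histone clusters with several symbols, none is named.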

Additional observations from a re-analysis of the deposited data

Results flagged for a closer look

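For 8 histone genes the change on EZH2 knockdown differed between the cell lines in a test of the difference (limma, Benjamini-Hochberg adjusted p under 0.05). Of 50 genes, 10% were called higher and 6% lower, near the 8.97% and 4.27% of all clusters. Values are given as HCC70 minus MDA-MB-468 in log2 units. H2AC25 differed by 1.32 (adjusted p = 0.00054) and H3C10 by 1.07 (adjusted p = 0.00092). H2BC9 differed by 0.80 (adjusted p = 0.014), H1-3 by 0.69 (adjusted p = 0.044) and H2BC8 by 0.56 (adjusted p = 0.024). H4C3 differed by -0.75 (adjusted p = 0.0070), H4C2 by -0.53 (adjusted p = 0.039) and H1-1 by -0.52 (adjusted p = 0.016). H2BC9 was 0.39 ± 0.12 higher in HCC70 shEZH2 cells than in set a, and 0.41 ± 0.12 lower in MDA-MB-468 shEZH2 cells than in scrambled cells (change -0.41), and neither passed the test alone. With set b as the HCC70 control, H2BC9 changed by -0.12 in HCC70 shEZH2 cells, and H2BC9 and H1-3 lost their calls for the difference between the lines (0.30 and 0.54).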

How the results depend on the processing

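The genes named by the rule in the 4 treatments kept their direction under every alternative that tested them, 210 values keeping their side of the threshold and 40 missing it, while 219 counts of calls stayed within 1.5 times and 53 moved beyond. With the spread estimated from the arrays of each comparison alone, calls numbered 1 higher and 1 lower in HCC70 shEZH2, 21 and 1 in shEED, 0 lower in MDA-MB-468 shEZH2, 2 and 0 for the difference between the lines, and 12 and 3 for set b minus set a. Whether the replicate numbers pair the arrays is not known. A replicate block on these numbers gave 4 lower in HCC70 shEZH2 and 2 lower in MDA-MB-468 shEZH2. It gave 3 higher for the difference between the lines, 2 higher for set b minus set a and 1 lower for shEED minus shEZH2. The other scrambled set gave 13 lower in HCC70 shEZH2 and 24 higher in shEED, and both sets together 21 higher in shEED. Outside that rule, H2BC9, H1-2 and H3C8 turned direction in HCC70 shEZH2 with set b (-0.12, -0.27 and 0.58, the last called). HCC70 minus MDA-MB-468 controls had 5 higher with a floor of log2 7, with arrays centred on their medians or with clustered genes only. No floor gave 2 higher for set b minus set a and 1 lower for shEED minus shEZH2, as did centring for the last. Leaving out each array gave 1 to 3 higher and 2 to 7 lower in HCC70 shEZH2, 4 to 7 higher in shEED, 0 to 8 lower in MDA-MB-468 shEZH2, 3 to 9 higher and 1 to 6 lower for the difference between the lines, 6 to 7 higher and 17 to 25 lower between the control lines, 0 to 1 higher for set b minus set a, and 4 to 8 higher and 0 to 2 lower for shEED minus shEZH2. The cause of these shifts was not tested. Signals near log2 6, such as those of H2BC10 and H4C9, lie close to background.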

Other observations

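Histone clusters whose probes carry several symbols could not be given to a gene, and 18 of 20 passed the floor. In HCC70 shEZH2 cells 2 of the 18 were called higher and 0 lower by limma, against 7.30% and 4.06% of all clusters. Their median change was 0.29, against 0.0083 over all clusters and 0.0020 for the 50 genes. In shEED cells 4 were higher and 0 lower, against 6.63% and 7.53% of all clusters. The median there was 0.24, against 0.024 over all clusters and 0.22 for the 50 genes. In MDA-MB-468 shEZH2 cells 0 were higher and 1 lower (median -0.04), against 2.73% and 5.57% of all clusters. With EZH2 cDNA the changes lay between -0.30 and 0.07.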
